A study of Mus musculus with 24 samples.

Results

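Gene expression was compared between Mettl14 knockout and wild-type mouse dorsal root ganglia (DRG) without a nerve lesion. The comparison takes the 6 naive libraries of the deposited RNA-seq count table, 3 for each genotype, out of 24 samples in the series, and every gene that passed a filter on low counts, which was 13291 of 24421 gene symbols. The series asks how N6-methyladenosine (m6A), a methyl mark on messenger RNA, takes part in axon regeneration. It also holds 6 RNA-seq libraries from day 1 after a sciatic nerve lesion (3 of each genotype), 10 wild-type libraries of an antibody pulldown of methylated RNA and its input, and 2 wild-type single-base maps of the mark. The tissue was the lumbar L4/5 DRG of C57BL/6 mice, and RNA was selected for poly(A) and made into libraries by the Smart-seq2 method. Wild-type libraries carry the genotype label wild type. The mutant libraries are titled Mettl14cKO, a conditional knockout, and carry the genotype label Mettl14-/-. The sources used here give neither the Cre line behind the deletion nor the cells it acts in, the age of the mice, or whether each library came from a different animal. P-values therefore describe the spread between libraries, which may be technical in part. All libraries carry 1 treatment label that names both sham surgery and crush, and it is not settled here whether the ganglia titled naive had sham surgery.

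Mettl14 encodes the partner of the catalytic subunit Mettl3 in the nuclear complex that places m6A on adenosines of messenger RNA, mostly within a short motif around AC and often near the stop codon. The mark is read by YTH-domain proteins, which can speed the decay of a transcript or raise its translation, and it is removed by demethylases. The DRG holds the cell bodies of sensory neurons together with satellite glia, Schwann cells, fibroblasts, vessels and immune cells, so a count from the whole ganglion adds all of them up, and fewer cells of a type cannot be told apart from less RNA per cell.

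The naive libraries held 5762193 to 12639160 counts, and libraries of a group agreed across genes at a Spearman correlation of at least 0.968. Levels are given in CPM, counts relative to the TMM-scaled library total, and differences as log2 of Mettl14cKO over wild type. Genes are named as called where the adjusted p was under 0.05 in edgeR's quasi-likelihood test with Benjamini-Hochberg adjustment over all 13291 genes. Wild-type libraries 1 and 2 and Mettl14cKO library 2 had Y-linked transcripts, and the other naive libraries had Xist, so both groups mixed the sexes. The libraries of a group thus did not all come from the same animal. The summed level of 17 pan-neuronal genes was 18400 to 21400 CPM in wild type and 14900 to 18500 CPM in Mettl14cKO, so the neuronal markers of the labelled tissue were present in every library. Wild-type library 2 stood apart in neutrophil markers, whose sum over 12 genes was 1700 CPM there and 187 to 436 CPM in the other 5 naive libraries.

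The targeted gene, Mettl14, serves as a check on the genotype labels. Its level was 23.3, 22.9 and 24.1 CPM in the wild-type libraries and 14.2, 18.9 and 15 CPM in the Mettl14cKO libraries. All knockout libraries lay below all wild-type libraries, with 16.03 ± 2.49 CPM remaining (SD, n = 3). The log2 difference of −0.55 (SE 0.17) did not pass (adjusted p = 0.3157). Counts over a whole gene do not show which exons the remaining reads come from, and how much of them comes from cells that kept the gene was not tested.

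In all, 38 of 13291 genes differed, or 0.286% of those tested. Of these, 23 were higher in Mettl14cKO (0.173%) and 15 were lower (0.113%). At an unadjusted p under 0.05 there were 1010 genes (7.6%), and the median SE of a log2 difference was 0.239. All 38 called genes had groups of 3 libraries that did not overlap, which held for 1430 genes in the whole table (10.8%). The smallest called difference was 0.73 on the log2 scale. They are described in 3 groups: transcripts almost missing from wild type, transcripts raised from a measured level, and transcripts lowered.

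The first group held 10 of the 23 higher genes, all with a wild-type mean of at most 1.22 CPM. All of them but Pi4kb and Sycp3 passed the filter on low counts only through Mettl14cKO libraries. A high level there was thus a condition for their being tested. Gbp2b, a GTPase of the guanylate-binding family that interferon induces, gave 1, 3 and 7 counts in the wild-type libraries and 139, 141 and 146 in the Mettl14cKO libraries. Summed over the 3 libraries of a group, 11 counts stood against 426, a ratio of 58.3 after scaling by depth (95% exact interval 32.3 to 118, counting error only). Fn3krp, a kinase that acts on sugar-modified proteins, gave 1, 2 and 7 counts against 118, 139 and 152, a ratio of 61.6 (33.1 to 129). No library of one genotype came near the other, and both genes passed (adjusted p = 9.269e-08 for Gbp2b and 2.007e-07 for Fn3krp).

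The bases before the start of 2 of these genes, and of the interferon-induced gene Ifi44l, are shown because Gbp2b and Ifi44l share a known inducer and all 3 are nearly off in wild type. They are the 250 bases before the start in RefSeq's promoter table (GRCm38.p6), written 5′ to 3′ on the gene's own strand. Capitals mark matches, on either strand, to the interferon-stimulated response element (searched as GAAA, any 2 bases, then GAAA), the gamma-activated site (TTCNNNGAA) and the CCAAT box (CCAAT). The windows lie at chr3:142594597-142594846 on the plus strand for Gbp2b, chr3:151762892-151763141 on the minus strand for Ifi44l and chr11:121421123-121421372 on the plus strand for Fn3krp. The span of Gbp2b in the gene table starts at base 142594816, so the last bases of its window lie inside that span.
Gbp2b: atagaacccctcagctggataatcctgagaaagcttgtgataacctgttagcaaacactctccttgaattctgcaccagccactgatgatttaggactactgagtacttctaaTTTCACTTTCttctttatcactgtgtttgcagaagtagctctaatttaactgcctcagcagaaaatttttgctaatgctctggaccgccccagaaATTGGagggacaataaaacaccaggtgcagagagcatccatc
Ifi44l: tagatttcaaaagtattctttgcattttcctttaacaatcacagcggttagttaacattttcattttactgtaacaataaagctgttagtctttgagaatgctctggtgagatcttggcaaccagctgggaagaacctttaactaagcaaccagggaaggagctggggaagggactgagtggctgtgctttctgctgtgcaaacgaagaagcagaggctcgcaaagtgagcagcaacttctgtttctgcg
Fn3krp: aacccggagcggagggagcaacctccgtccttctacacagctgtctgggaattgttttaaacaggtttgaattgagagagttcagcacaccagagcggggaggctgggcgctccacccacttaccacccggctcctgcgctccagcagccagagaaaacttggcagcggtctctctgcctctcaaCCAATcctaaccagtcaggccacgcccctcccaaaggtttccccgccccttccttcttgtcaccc
Gbp2b held 1 interferon element and 1 CCAAT box, Fn3krp held 1 CCAAT box, and the Ifi44l window held none of the 3 motifs. Of the 29 called genes with a window, 2 held the interferon element (Rnf146 and Gbp2b), against 3.46% of all 27025 genes in the table. One window held the gamma-activated site (Elmo1, against 8.13% of all genes), and 12 held a CCAAT box, against 37.5%. The matches describe letters in a window and show no binding.

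AI429214, a transcript with no assigned function, gave 1, 1 and 3 counts in wild type and 40, 106 and 46 in Mettl14cKO, a ratio of 57.8 (24.4 to 180). Plin4, a coat protein of lipid droplets, gave 0, 1 and 1 counts against 4, 33 and 12, a ratio of 36.9 (9.68 to 313). In both genes Mettl14cKO library 2 was the highest, and for Plin4 it held 33 of 49 counts. Without that library the fitted log2 difference of Plin4 was 3.73 in place of 4.97, and the call was lost (adjusted p = 0.2581). Markers of adipocytes, the usual place of Plin4, summed to 17.0, 3.84 and 5.46 CPM in Mettl14cKO libraries 1, 2 and 3. In wild type they summed to 1.22 to 6.68 CPM. The part of adipocytes in the Plin4 values was not tested.

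Ifi44l gave 4, 1 and 4 counts against 18, 13 and 20, a ratio of 8.53 (4.16 to 19.7). Gstcd, a protein with a glutathione S-transferase domain, and Gng13, a G protein gamma subunit known from taste and retinal cells, each summed to 11 counts in wild type and 64 in Mettl14cKO, a ratio of 8.76 (4.58 to 18.4). Each of the 3 genes had non-overlapping groups at counts of 25 or fewer per library, so single libraries carry wide counting error. Pi4kb, a lipid kinase of the Golgi, stood at 1.35, 0.818 and 0.456 CPM in wild type against 5.83, 5.06 and 6.70 CPM, a log2 difference of 2.76 (SE 0.37, adjusted p = 0.001767). The meiotic chromosome protein gene Sycp3 was higher by a log2 of 1.90 (SE 0.39), and Gm3893, which overlaps another annotated copy on chromosome 4, by 2.68 (SE 0.40). Reads of Gm3893 could belong to its copies.

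Another 4 wild-type libraries, the inputs of the m6A pulldown, were not in this comparison and give the wild-type level in other samples. They come from a separate table with its own scaling, so levels across the tables are side by side and not tested. Gbp2b and Gm3893 had 0 counts in all 4, from library totals of 927807 to 19653733. Fn3krp stood at 0.405 to 1.29 CPM, AI429214 at 0 to 1.41 CPM and Gstcd at 0 to 0.515 CPM. These input levels lie below every naive Mettl14cKO library for all of these genes. In naive wild-type RNA-seq, Gbp2b had 1, 3 and 7 counts and Gm3893 had 8, 5 and 17. Whether reads of these 2 genes were counted alike in the inputs and in RNA-seq was not tested. Plin4 had 0 counts in 3 of the 4 inputs and 0.368 CPM in the other, below the lowest naive Mettl14cKO library at 0.598 CPM. For Pi4kb the inputs reached 4.38 CPM, close to the lowest Mettl14cKO library at 5.06 CPM. For Sycp3 the naive inputs stood at 2.45 and 2.93 CPM and the lesioned inputs at 7.13 (6 counts) and 1.78 CPM. The naive Mettl14cKO libraries stood at 4.78, 5.41 and 3.35 CPM, so 1 input lay above all of them.

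**Figure D1:**
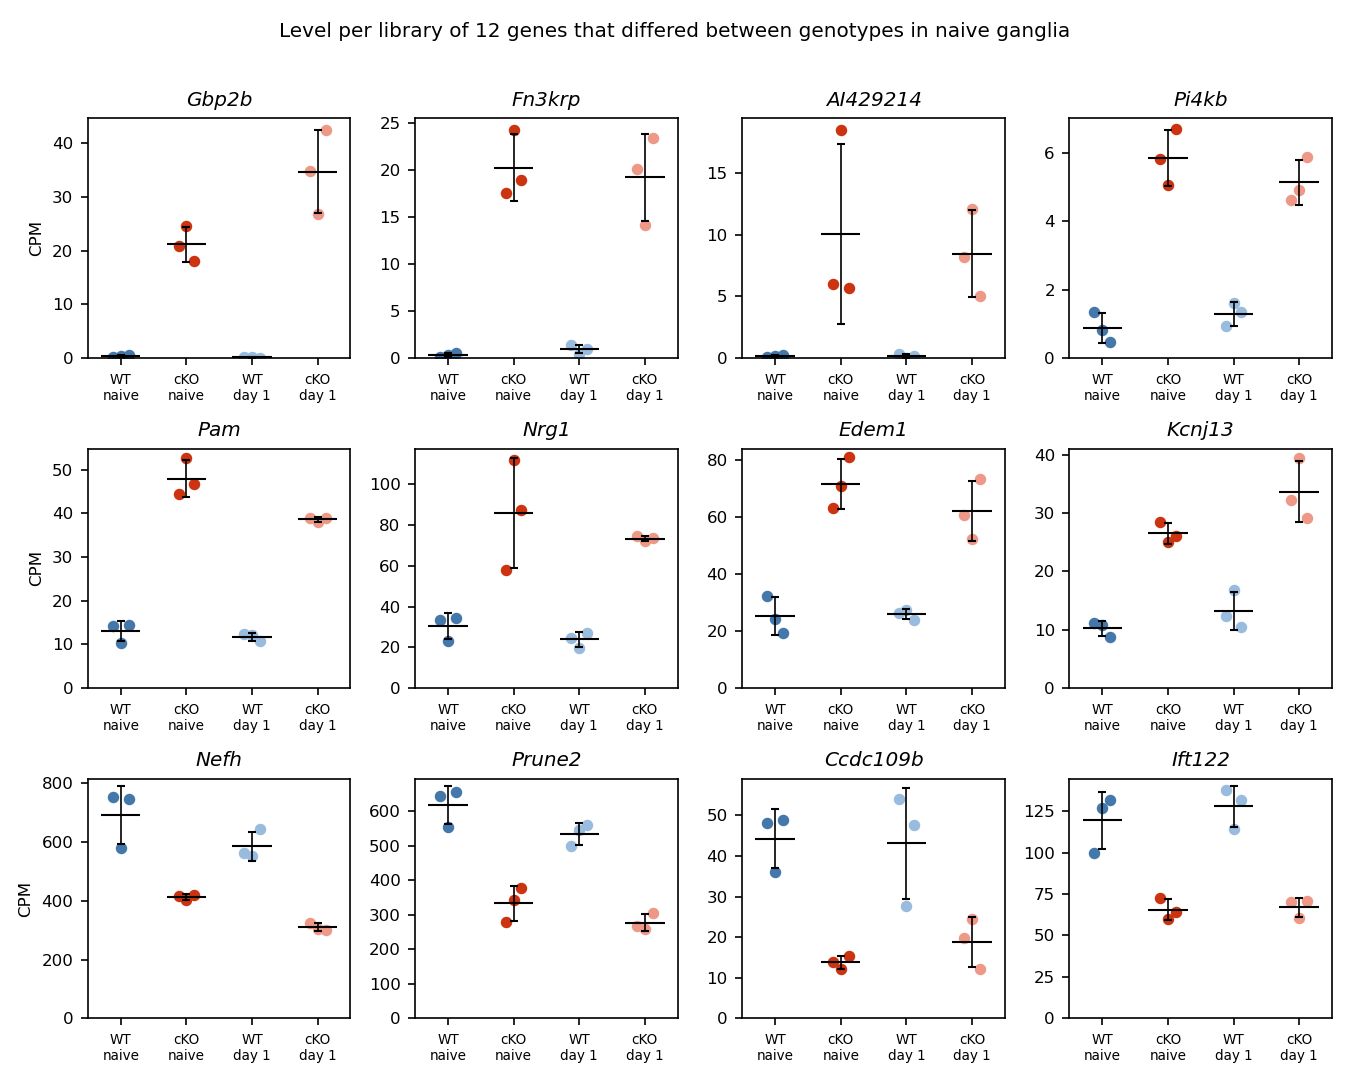
Level in CPM (vertical axis, linear, from 0) of 12 called genes in each RNA-seq library, by genotype and condition; points are libraries, the bar is the mean and the whiskers 1 SD (n = 3). In each panel the red Mettl14cKO points lie on one side of the blue wild-type points within naive ganglia: Gbp2b stays under 1 CPM in every wild-type library, and Nefh keeps 402 to 419 CPM in Mettl14cKO.

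The second group held 13 genes raised from a level that wild type also expressed. Pam, the enzyme that amidates the C-terminus of neuropeptides, stood at 14.3, 10.4 and 14.4 CPM in wild type and 44.5, 52.7 and 46.6 CPM in Mettl14cKO. The groups were far apart relative to their spread, with a 3.69-fold ratio of means (log2 1.87, SE 0.17, adjusted p = 1.205e-05). Edem1, which draws misfolded glycoproteins out of the endoplasmic reticulum for degradation, rose from 32.3, 24.1 and 19.2 CPM to 63.1, 70.7 and 80.8 CPM (2.84-fold, adjusted p = 0.00121). Nrg1, the growth factor on axons that Schwann cells read through ErbB receptors, rose from 33.4, 23.0 and 34.5 CPM to 58.0, 112 and 87.2 CPM (2.83-fold, adjusted p = 0.003586). Edem1 and Nrg1 varied more among the 3 knockout libraries than Pam did, but no knockout library reached down to wild type.

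Kcnj13, an inwardly rectifying potassium channel, stood at 11.1, 10.8 and 8.82 CPM against 28.4, 25 and 26.1 CPM (log2 1.38, SE 0.20, adjusted p = 0.003586). Lrrc3b, a leucine-rich repeat membrane protein, stood at 14.7, 14.7 and 15.6 CPM against 28.4, 41.0 and 38.7 CPM (log2 1.26, SE 0.18, adjusted p = 0.002704). Elmo1, which activates the GTPase Rac together with Dock proteins, stood at 18.3, 10.4 and 17.6 CPM against 34.4, 50.6 and 68.5 CPM (log2 1.72, SE 0.31, adjusted p = 0.0199). Kcnj13 had tight groups, while Elmo1 spread over a wide range in the knockout.

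Shoc2, a scaffold that promotes Ras to Raf signalling, stood at 147, 183 and 119 CPM against 274, 428 and 316 CPM (log2 1.18, SE 0.18). Rnf146, a ubiquitin ligase that recognises poly-ADP-ribose and limits axin in Wnt signalling, stood at 112, 101 and 94.8 CPM against 180, 211 and 204 CPM (log2 0.95, SE 0.16). Anxa4, a calcium-dependent membrane-binding protein, stood at 118, 147 and 132 CPM against 257, 277 and 228 CPM (log2 0.94, SE 0.15). For these 3 abundant transcripts the knockout held about 2 times the wild-type level, with ratios of means of 2.26, 1.93 and 1.92, and none of the libraries crossed over.

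The remaining rises were A930005H10Rik (log2 1.27, SE 0.21), a non-coding transcript, the olfactory receptor gene Olfr920 (1.36, SE 0.28), Lonrf1, a RING finger protein (1.04, SE 0.19), and Trmt12, an enzyme of tRNA modification (0.73, SE 0.15). Olfr920 went from 3.87, 3.82 and 3.80 CPM to 9.42, 12.6 and 7.82 CPM. The wild-type libraries were almost equal and the knockout libraries all higher. Trmt12 was close to equal within each genotype, at 36.8, 34.6 and 31.2 CPM against 57.5, 56.7 and 56.0 CPM.

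The third group held the 15 lower genes. The largest call was 2610507I01Rik, a non-coding transcript, at 21.8, 18.1 and 18.9 CPM in wild type and 1.35, 9.60 and 1.37 CPM in Mettl14cKO. Mettl14cKO library 2 lay between the others and wild type, and the log2 difference of −2.33 (SE 0.48) was −3.85 without it. Its adjusted p of 0.04817 rested near the threshold and was 0.1048 with DESeq2.

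Ccdc109b, the inhibitory subunit of the mitochondrial calcium uniporter (also called Mcub), stood at 48.1, 36.0 and 48.8 CPM against 14, 12.2 and 15.3 CPM (log2 −1.67, SE 0.26, adjusted p = 0.005974). Fcrls, a gene known from microglia and some macrophages, stood at 8.70, 9.82 and 8.06 CPM against 4.18, 1.57 and 2.36 CPM (log2 −1.69, SE 0.29). Both genes were about 3 times lower with no overlap. No other of the 15 tested macrophage markers was called, and the summed level of the list was 173 to 317 CPM in wild type and 189 to 283 CPM in Mettl14cKO.

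Rbp7, a retinol carrier, fell by 1.67 on the log2 scale (SE 0.30), to 3.51 ± 0.819 CPM from 11.1 ± 2.62 CPM. Them5, a mitochondrial acyl-CoA thioesterase, stood at 2.96 ± 0.623 against 9.37 ± 2.59 CPM, and Cyb5d2, a haem-binding protein, at 8.47 ± 2.72 against 21.2 ± 2.19 CPM. In all 3 genes the lowest wild-type library lay above the highest knockout library. Ibsp, a secreted sialoprotein best known from bone, stood at 34.2, 30.8 and 20.9 CPM against 11.4, 15.4 and 10.6 CPM. The other 7 bone and cartilage markers reached at most 2.28 CPM in any naive library, with Sp7 at 0 in all 6.

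Phtf1 (log2 −1.30), a membrane protein, Sh3bgr (−1.16) and Tifa (−0.87), an adaptor that links innate sensors to TRAF6, were also lower. Tifa stood at 33.4, 37.8 and 43.6 CPM against 18.7, 23.0 and 21.0 CPM. Prune2, a large protein with a lipid-binding BCH domain, stood at 644, 554 and 654 CPM against 278, 343 and 377 CPM (log2 −0.89, SE 0.15, adjusted p = 0.01097). Both had narrow groups without overlap.

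Among the lower genes, 3 are known to act in the cilium, and this theme was chosen after the values were seen. Ift122, a part of the complex that carries cargo back from the ciliary tip, stood at 100, 127 and 132 CPM against 72.5, 59.9 and 64.4 CPM (log2 −0.87, SE 0.16, adjusted p = 0.01951). Rabl2, a small GTPase of intraflagellar transport, stood at 49.4, 54.3 and 66.6 CPM against 29.6, 28.8 and 34.5 CPM (log2 −0.87, SE 0.17). Efcab7, which anchors Hedgehog signalling proteins at the base of the cilium, stood at 15.1, 21.3 and 12.3 CPM against 6.87, 7.51 and 4.84 CPM (log2 −1.34, SE 0.25). All knockout libraries of the 3 genes lay below all wild-type libraries, and no wider list of cilium genes was tested.

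Nefh, the heavy neurofilament subunit that fills large myelinated axons, stood at 753, 580 and 746 CPM against 417, 402 and 419 CPM (log2 −0.75, SE 0.14, adjusted p = 0.03053). The knockout libraries were nearly equal, and wild-type library 2 was the lowest of its group. With only the 6 naive libraries in the fit the call was lost (adjusted p = 0.08318). The light and medium subunits had non-overlapping groups too, at 1710, 1120 and 1610 against 776, 840 and 863 CPM for Nefl (log2 −0.84, SE 0.20, adjusted p = 0.1197) and 710, 501 and 649 against 422, 330 and 390 CPM for Nefm (−0.70, SE 0.16, adjusted p = 0.09766). Neither passed, and the other intermediate filament genes Ina (−0.20) and Prph overlapped. The median of the 5 genes was −0.70, beside 0.00386 for all genes tested. The pan-neuronal markers, which include Nefh, Nefl, Nefm and Prph, had a median of −0.20 (−0.25 to −0.14 when each library was left out), with 3 of 17 above 0 and 4 lower without overlap, Nefh, Nefl and Nefm among them. The part of that shift in the neurofilament values was not tested.

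For all 38 calls the wild-type inputs were set beside the naive Mettl14cKO libraries in the same way. The other tested genes were not, so no share over all genes stands beside the counts that follow. These counts are therefore no result about the calls. All 4 inputs lay on the wild-type side of every naive Mettl14cKO library for 27 genes, 17 of the 23 higher and 10 of the 15 lower, and both naive inputs did for 34. Edem1 (7.13 to 23.0 CPM), Nrg1 (23.4 to 41.7 CPM) and Kcnj13 (4.30 to 12.6 CPM) were among them, and so were Ccdc109b (45.2 to 83.7 CPM) and Ift122 (167 to 208 CPM). The exceptions were Lrrc3b, A930005H10Rik, Olfr920, Elmo1, Pam and Sycp3 among the higher genes and Efcab7, Phtf1, Ibsp, Prune2 and Nefh among the lower ones. Elmo1 stood at 55.3 to 163 CPM in the inputs, and 3 of these 4 wild-type values lay above the highest naive Mettl14cKO library at 68.5 CPM. Pam stood at 10.9, 9.51 and 33.9 CPM in 3 inputs and at 193 CPM in naive input 2, above every Mettl14cKO library. That library stood apart from the other naive input, with Prune2 at 13200 CPM against 440 CPM. Its rank correlation across genes with the naive wild-type RNA-seq libraries was 0.882 to 0.91, against 0.929 to 0.939. For lesioned inputs 1 and 2 this correlation was 0.906 to 0.921 and 0.782 to 0.86. Lesioned input 2 thus had the lowest values, and it is among the 4 inputs counted above.

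**Figure D2:**
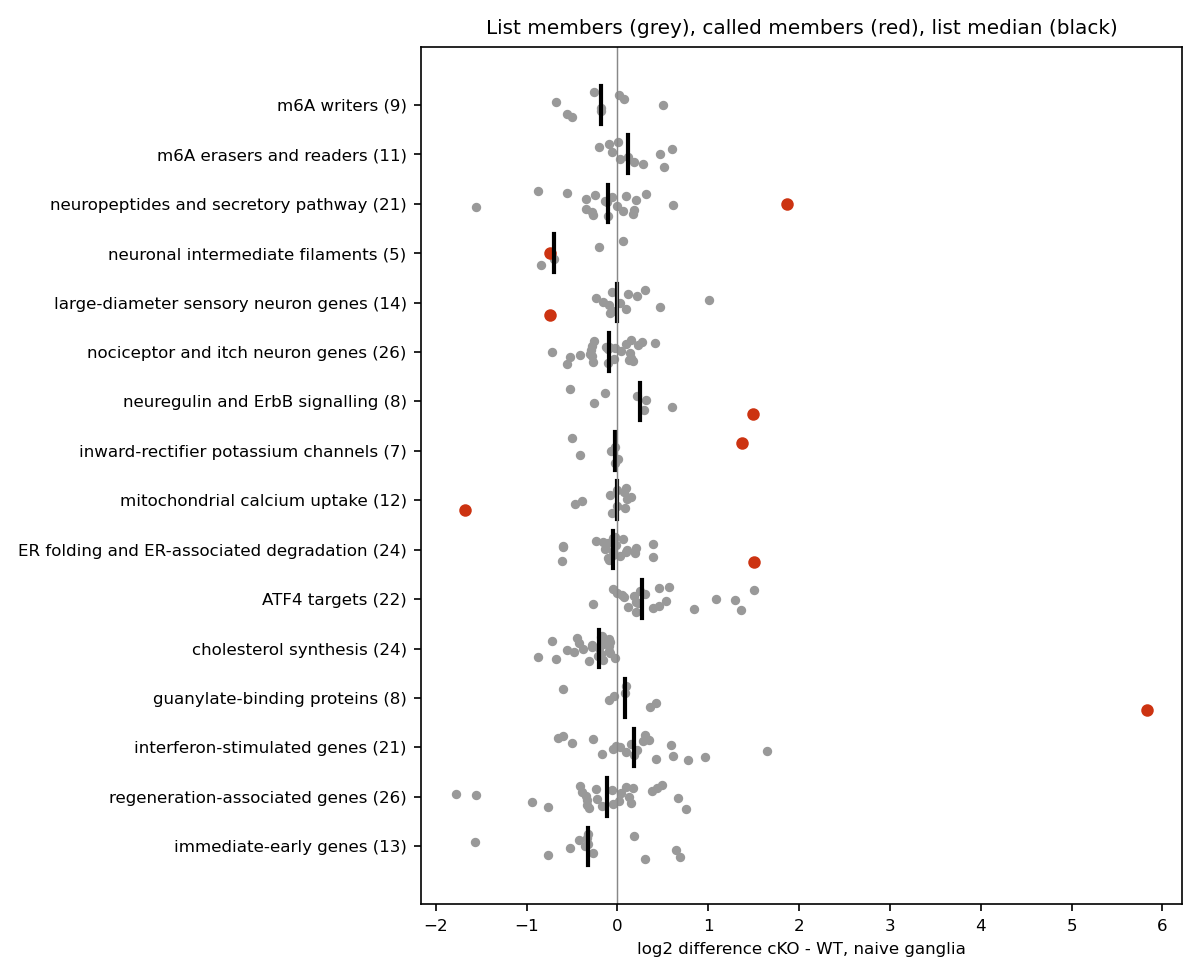
Log2 difference of Mettl14cKO over wild type in naive ganglia (horizontal axis) for each tested member of 16 gene lists (vertical axis, number of tested members in brackets); grey points are members, red points called members, black bars list medians. Red points are single members of their lists, cholesterol synthesis genes all lie left of 0 (median −0.21), ATF4 targets mostly lie right of it (median 0.27), and the 5 intermediate filament genes have the lowest median (−0.70).

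The other genes of the same pathways are given by list. A median without 1 library came from a new fit with its own filter on low counts, so its members could differ. With 0.286% of all genes called, 0 or 1 call in a list of this size is no result about the list. Of 21 tested neuropeptide and secretory pathway genes, Pam was the 1 called, and 8 were above 0 (median −0.11). The peptides Nts (0.62, SE 0.26) and Npy (−1.56, SE 0.67) and the chaperone Scg5 (0.32, SE 0.15) had the next smallest p-values and did not pass. Of 8 tested neuregulin and ErbB genes, Nrg1 was the 1 called (median 0.25). The protease Adam17 (−0.53), the receptor Egfr (0.60) and the ligand Nrg3 (0.29) had overlapping groups. Among 7 inward-rectifier channels (median −0.03), Kcnj16 (−0.51), Kcnj8 (−0.42) and Kcnj10 (−0.07) stood beside the called Kcnj13. Among 12 genes of mitochondrial calcium uptake (median −0.00327), the regulator Micu3 (−0.47), the subunit Smdt1 (−0.39) and the exchanger Letm1 (0.15) overlapped between genotypes.

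Of 24 genes for folding and degradation in the endoplasmic reticulum, Edem1 was the 1 called, and the median was −0.05. The stress sensor Atf6 (0.39, SE 0.18) and the chaperone Dnajb9 (0.39, SE 0.18) were higher without overlap and Creld2 (−0.60, SE 0.26) lower without overlap, and none of these passed. Of 8 guanylate-binding protein genes, Gbp2b was the 1 called (median 0.08, or −0.02 without Mettl14cKO library 3 and 0.39 without wild-type library 2). Its neighbour Gbp3 had a log2 of 0.42 (SE 0.19, adjusted p = 0.643), Gbp2 0.36 and Gbp8 −0.60. Among 21 interferon-stimulated genes none was called and 14 were above 0 (median 0.18, or −0.02 without Mettl14cKO library 3 and 0.42 without wild-type library 2). Mx1 (1.64, SE 0.55) and Ifit3 (0.96, SE 0.30) stood above 0, and Xaf1 (−0.60, SE 0.19) and Igtp (−0.51, SE 0.18) below.

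ATF4 targets are genes for amino acid supply and stress that the transcription factor ATF4 switches on. Of 22 tested, 19 were above 0 and none was called, with a median of 0.27 beside 0.00386 for all genes (0.23 to 0.40 when each library was left out). Ddit3, a stress transcription factor, stood at 39.5, 34.9 and 31.2 CPM against 47.1, 63.7 and 78.8 CPM (log2 0.85, SE 0.19, adjusted p = 0.08534). Chac1, which degrades glutathione, stood at 2.13, 2.05 and 1.90 CPM against 3.59, 6.11 and 5.96 CPM (1.36, SE 0.37, adjusted p = 0.2431). Mthfd2 (0.54) and the amino acid carrier Slc7a5 (1.09) also had groups without overlap, as did 6 of the 22 in all, beside 812 of the 13291 genes tested that were higher without overlap.

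Cholesterol synthesis showed the opposite sign, with 0 of 24 genes above 0 and a median of −0.21 (−0.29 to −0.16 when each library was left out). No member was called, 5 had an unadjusted p under 0.05, and 6 had non-overlapping groups, all lower in Mettl14cKO. Among all 13291 genes 435 were lower at that p and 618 lower without overlap. Cyp51, a demethylase of the sterol ring, stood at 203, 191 and 159 CPM against 126, 130 and 120 CPM (log2 −0.56, SE 0.15, adjusted p = 0.2268). Mvk (−0.68) and Mvd (−0.88), early enzymes of the pathway, had adjusted p = 0.4307 and 0.3015. Satellite glia, and the myelinating Schwann cells that make the sterol of myelin, had marker sums of 1540 to 3130 and 3610 to 4240 CPM in Mettl14cKO against 2630 to 3270 and 3390 to 4670 CPM in wild type. Their part in these values was not tested.

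In the m6A machinery 0 of 9 writer genes and 0 of 11 erasers and readers were called, beside 0.286% of all genes. The writers had a median of −0.18, which was −0.37 without Mettl14cKO library 1. Mettl3 stood at 44.0, 54.4 and 50.3 CPM against 46.0, 26.9 and 32.0 CPM (log2 −0.50, SE 0.18, adjusted p = 0.4585), with Mettl14cKO library 1 inside the wild-type range. The other writers were Wtap (−0.18), 1110037F02Rik, the symbol used for Virma (−0.18), Rbm15 (0.50), Rbm15b (−0.68), Zc3h13 (0.07), Cbll1 (0.02) and Mettl16 (−0.26), all with overlapping groups. Among the erasers and readers (median 0.12, or 0.04 without wild-type library 3), the nuclear reader Ythdc1 (0.47, SE 0.18) had groups without overlap and did not pass, and Fto (0.51), Igf2bp2 (0.61) and Hnrnpa2b1 (−0.21) overlapped.

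Sensory neuron and growth genes were counted against the same share of 0.286%. In the large-diameter neuron list Nefh was the 1 call of 14 (median −0.00845), beside Necab2 (1.01), Fam19a1 (0.21) and Cntnap2 (−0.24). In the nociceptor and itch neuron list 0 of 26 were called (median −0.10), and the receptors Mrgprb5 (−0.72) and Mrgprd (−0.41) and the cytokine receptor Osmr (0.41) were among its members of smallest p. Of 26 regeneration-associated genes 0 were called (median −0.12, ranging from −0.28 without Mettl14cKO library 1 to 0.00485 without wild-type library 1). Atf3, a transcription factor of axotomised neurons, stood at 8.51, 9.41 and 11.1 CPM against 14.2, 13.4 and 21.2 CPM (0.76, SE 0.25, adjusted p = 0.3764), and the adhesion protein gene Flrt3 at 78.6, 114 and 85.5 CPM against 137, 140 and 164 CPM (0.67, SE 0.18, adjusted p = 0.2047).

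Jun (−0.77) and Il6 (−1.78) of that list overlapped between genotypes. Of 13 immediate-early genes 0 were called (median −0.33, but −0.10 without wild-type library 1), with Arc (−1.57), Egr2 (−0.52) and Fosl2 (0.69) next to Jun. The medians of the inward-rectifier, mitochondrial calcium and large-diameter neuron lists, all near 0, changed sign when single libraries were left out.

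**Figure D3:**
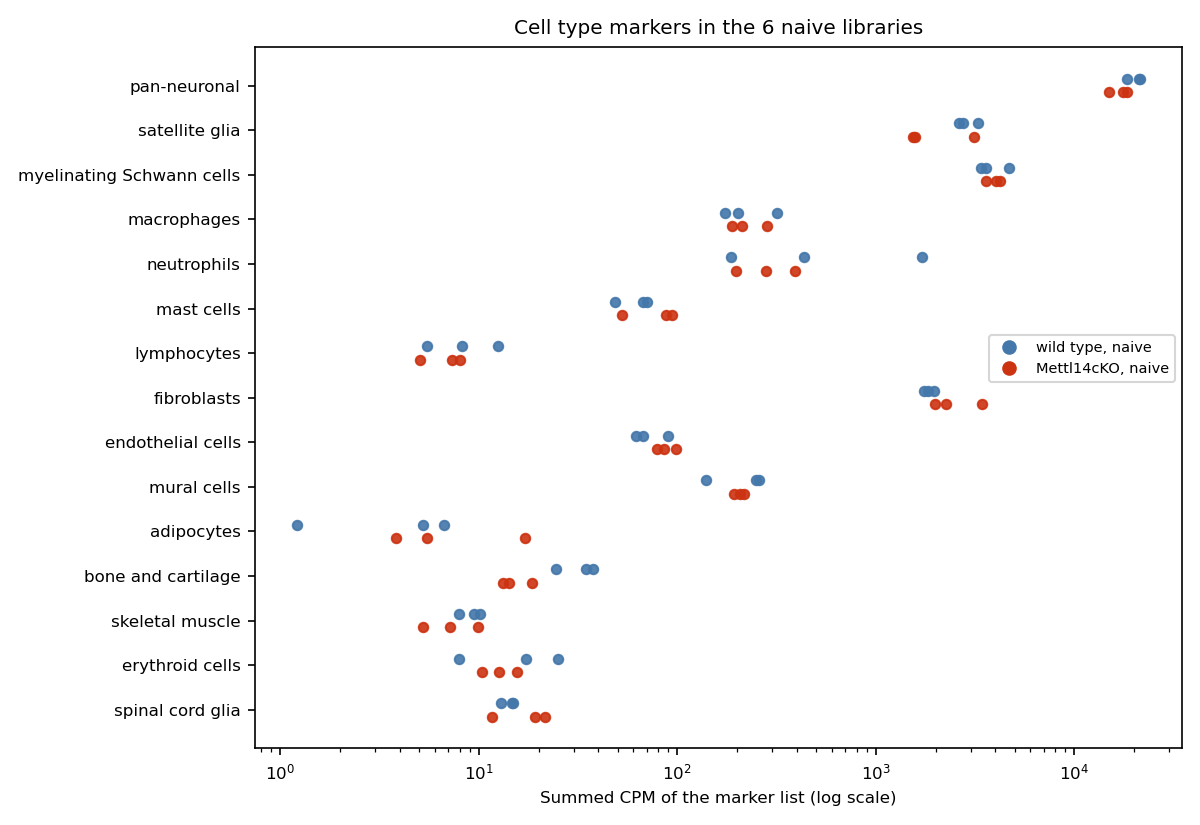
Summed level in CPM (horizontal axis, log scale) of the marker genes of 15 cell types (vertical axis) in the 6 naive libraries; each point is 1 library. Fibroblast sums lie at 1990 CPM or more in Mettl14cKO and at 1970 CPM or less in wild type, the bone and cartilage sums separate and are mostly Ibsp, and 1 wild-type library stands far right in neutrophil markers at 1700 CPM.

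Markers of other cell types were summed and read as list medians. Fibroblast markers summed to 1840, 1970 and 1750 CPM in wild type and 3420, 1990 and 2260 CPM in Mettl14cKO, so the knockout sums were higher by a small gap. The median over the 6 tested fibroblast genes was 0.06. Each fit without 1 library repeated the filter on low counts, so the members behind its median could differ. These medians lay between −0.74 (without Mettl14cKO library 1) and −0.01, all below the main one. With no filter the fibroblast median was −0.245. Satellite glia markers were 3130 CPM in Mettl14cKO library 1 and 1580 and 1540 CPM in libraries 2 and 3. Neutrophil markers had a list median of −1.38, which was −0.12 without wild-type library 2. The bone and cartilage sum was 24.5 to 37.5 CPM in wild type and 13.2 to 18.5 CPM in Mettl14cKO, and most of it was Ibsp. In the marker lists Fcrls, Ibsp and Nefh were the called genes, 1 each in macrophages, bone and cartilage, and pan-neuronal genes, and 0 of 5 sex-linked genes were called. Several other medians moved or turned in fits without 1 library, and the part of changed members in this was not tested. That of 3 adipocyte genes was 0.83 but −0.40 without Mettl14cKO library 1, that of 3 lymphocyte genes −0.44 but −0.00513 without wild-type library 2, and that of 9 mast cell genes 0.36 but 0.05 without wild-type library 3. Mural cells (−0.12, to 0.05 without wild-type library 2), endothelial cells (0.13, to −0.07 without Mettl14cKO library 1), satellite glia (0.04, to −0.08 without Mettl14cKO library 1), macrophages (0.06, to −0.15 without Mettl14cKO library 1) and skeletal muscle (−0.10, to 0.27 without wild-type library 2) changed sign. Myelinating Schwann cells stood at −0.15 (−0.33 without Mettl14cKO library 1), and 1 tested gene each stood for erythroid cells (−0.40) and spinal cord glia (0.30). Whether shifts in cell makeup take part in the calls was not tested.

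The 6 libraries from day 1 after the lesion give the genotype difference in other samples. There 194 of 13291 genes were called (1.46%), 126 higher and 68 lower. All 38 naive calls had the same sign in the lesioned libraries, and 31 of them were called there, which is 81.6% of the naive calls and 16% of the lesioned calls. Both comparisons used 1 estimate of the spread over all 12 libraries, so their calls are not independent. The share of all genes with the same sign in both conditions was not counted. The groups did not overlap in the same direction for 35 of the 38, beside 20% of all genes that were apart in either direction. The median log2 of the higher calls was 1.72 in naive and 1.62 in lesioned ganglia, and that of the lower calls was −1.30 and −1.

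Pam held 12.3, 12.2 and 10.7 CPM against 38.9, 38 and 38.9 CPM after the lesion, and Nrg1 24.7, 19.8 and 27.2 CPM against 74.6, 71.9 and 73.5 CPM. The knockout libraries were closer to each other than in naive ganglia for both genes. Gbp2b gave 1, 1 and 0 counts against 196, 191 and 303, a ratio of 408 (112 to 3370). Ifi44l gave 0 counts in the 3 wild-type libraries against 14, 7 and 6, at least 10.6-fold higher when 3 counts are allowed over the group. Tifa, which stood at 38.3 ± 5.15 CPM in naive wild type, stood at 245, 238 and 210 CPM after the lesion against 112, 135 and 99 CPM in Mettl14cKO. Its level was thus several times higher in both genotypes, at nearly equal log2 differences of −0.87 and −1.

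Nefh stood at 562, 553 and 643 CPM against 326, 305 and 300 CPM after the lesion (log2 −0.92, adjusted p = 0.003601), and Prune2 at 499, 546 and 559 CPM against 266, 259 and 306 CPM (−0.95, adjusted p = 0.003883). The 7 naive calls not called after the lesion were 2610507I01Rik (−1.61), Cyb5d2 (−0.50), Ibsp (−0.56), Lonrf1 (0.39), Olfr920 (0.12), Sh3bgr (−0.61) and Sycp3 (1.57). Olfr920 differed least, at 13.2, 12.2 and 9.64 CPM in wild type and 10.1, 18.2 and 9.54 CPM in Mettl14cKO, where the groups overlapped. A test of the difference between the genotype effects of the 2 conditions called 0 genes with edgeR (492 at an unadjusted p under 0.05) and 3 with DESeq2 (Atf3, Flrt3 and Msh6), none of them a naive call. Among the naive calls its smallest unadjusted p was that of Olfr920 (0.004607).

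**Figure D4:**
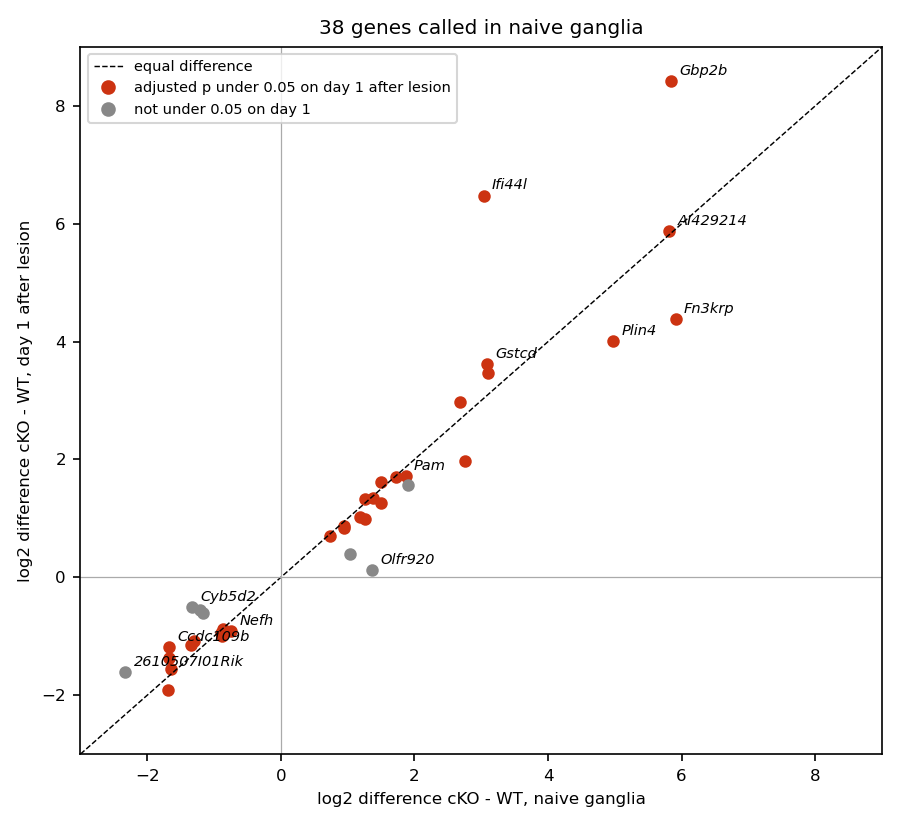
Log2 difference of Mettl14cKO over wild type in naive ganglia (horizontal axis) and on day 1 after a lesion (vertical axis) for the 38 genes called in naive ganglia; red points were also called after the lesion, grey points were not, and the dashed line marks equal differences. All 38 points keep their sign, and most lie near the line; the fitted values of genes with wild-type counts near 0 (Gbp2b, Ifi44l) depend on the prior count.

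The called genes were unevenly placed in the genome. Mettl14 lies on chromosome 3 (GRCm38.p6, bases 123368295 to 123385990). Chromosome 3 held 10 of the 38 called genes (26.3%) and 690 of the 13265 tested genes with a position (5.2%). Within 20 Mb of Mettl14 lay 6 of the 38 (15.8%), against 191 of the tested genes (1.44%). No other chromosome held more than 4 calls, and the X chromosome held 0 of 486 tested genes.

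The 10 genes went both ways. Gbp2b (19.2 Mb after Mettl14), Gstcd (9.66 Mb after), Ifi44l (28.4 Mb after), A930005H10Rik (7.49 Mb before) and Pi4kb (28.4 Mb before) were higher. Tifa (4.42 Mb after), Ccdc109b (6.57 Mb after), Phtf1 (19.4 Mb before), Them5 (29.0 Mb before) and Fcrls (36.1 Mb before) were lower. The median log2 of all tested genes within 20 Mb was 0.02, and the median size of their difference was 0.223, beside 0.177 for all genes tested, so large differences of both signs stood around a median near 0. Of the lesioned calls, 27 of 194 (13.9%) lay on chromosome 3. All 10 genes kept their sign after the lesion and were called there.

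**Figure D5:**
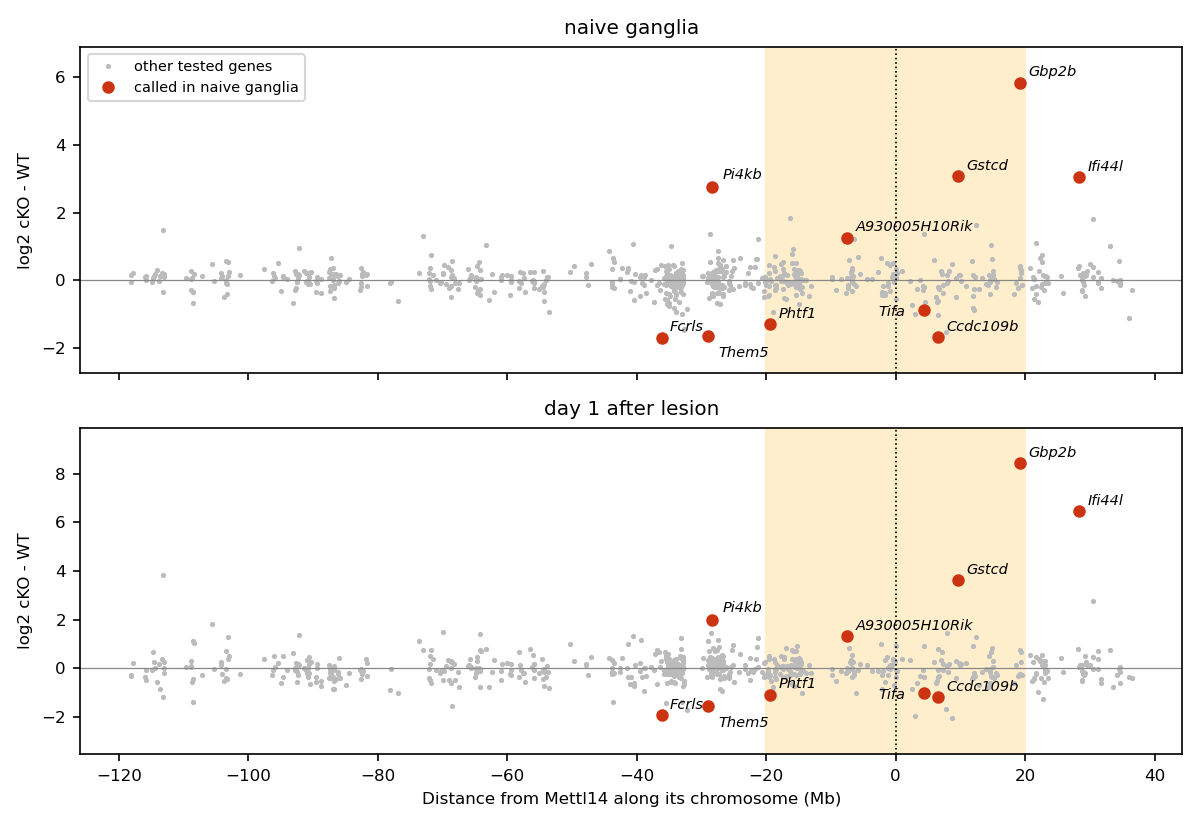
Log2 difference of Mettl14cKO over wild type (vertical axis) for all tested genes of the chromosome that carries Mettl14, by distance from Mettl14 in Mb (horizontal axis), in naive ganglia (top) and on day 1 after a lesion (bottom); red points are the 10 genes called in naive ganglia, and shading marks 20 Mb to each side. All 10 lie between 36.1 Mb before and 28.4 Mb after Mettl14, at the same sign in both panels.

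The strain background of the 2 genotypes near Mettl14 is not given in the sources used here, and its part in these differences was not tested. Away from chromosome 3, AI429214 and Lonrf1 lie near each other on chromosome 8, with starts at 36993575 and 36216062, and both were higher. Nrg1, the remaining call on chromosome 8, starts at 31807452 and was higher too. Several called genes overlap another annotated gene: Ift122 overlaps Mbd4, Nefh overlaps Ap1b1, Kcnj13 overlaps Gigyf2, Shoc2 overlaps Bbip1, Rnf146 overlaps Echdc1, Gng13 overlaps Chtf18 and Gstcd overlaps Ints12. Whether the counting used strand is not given, so reads of such pairs may not be told apart.

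The wild-type map of single m6A bases in naive ganglia (miCLIP, 1 library, which reads the mark from mutations at the antibody crosslink) gave a view of which called transcripts carry the mark. Of the 38 called genes 7 held at least 1 of its sites in their span, or 18.4% (95% exact binomial interval 7.74 to 34.3%), against 31.2% of all genes tested. Among genes averaging 20 CPM or more the shares were 33.3% (13.3 to 59%) of 18 called genes and 39.4% of all. Under 20 CPM they were 5% (0.127 to 24.9%) of 20 called genes and 25% of all. The share of all genes lay inside the interval of the called genes in the class of 20 CPM or more. In the class under 20 CPM it lay just above the upper end. The classes rest on the mean over both genotypes, while the map is wild type. The class under 20 CPM holds the called genes almost missing from wild type, where few reads can show a site. Its share is thus no result about the mark. Counting only sites of at least 3 mutated reads turned the direction, to 5.26% of called genes (2 genes) against 1.45% of all. The data therefore give no settled difference in site share between called and other genes, and site detection needs reads, so levels and sites are linked.

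Prune2 held 43 sites and Nefh 21, followed by Rnf146 with 9, Nrg1 with 4, Shoc2 and Trmt12 with 2 each and Pi4kb with 1. The Nefh site with the most mutated reads was at base 4945142 of chromosome 11 (minus strand), in the 5 bases ggAcc with the methylated A in capitals, where 4 of 20 reads were mutated. The next by mutated reads was at base 4945301, again ggAcc, with 3 of 12 reads. In Prune2 the site with the most mutated reads was at base 17120525 of chromosome 19 (plus strand), tgAct, with 3 of 18 reads (16.7%), while base 17118302 had a larger mutated share from fewer reads (2 of 5, 40%). Bases 4945142, 4945301 and 17120525 were also in the list from lesioned wild-type ganglia, and base 17118302 was not. Of the 7 genes with sites, Prune2 and Nefh were lower and the other 5 higher in Mettl14cKO, and Gbp2b, Fn3krp, Pam, Edem1 and Kcnj13 held none in naive ganglia. Gbp2b and Fn3krp were almost missing from wild type, where the map was made, so a site could hardly be seen. No such map of Mettl14cKO ganglia was analysed here.

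The calls differed in how far they rested on single libraries. Without any 1 of the 6 libraries, 9 of the 38 still passed: AI429214, Edem1, Fn3krp, Gbp2b, Kcnj13, Lrrc3b, Nrg1, Pam and Pi4kb. All of these are higher in Mettl14cKO, and no lower gene passed in every case. The number of the 38 that remained was 12, 16 and 18 without wild-type libraries 1, 2 and 3, and 23, 13 and 16 without Mettl14cKO libraries 1, 2 and 3. All 38 kept their sign throughout. With the fit limited to the 6 naive libraries, Nefh, Tifa (adjusted p = 0.06466) and Trmt12 (0.1415) were lost. Plin4 did not pass the filter there and was not tested, so 34 of 37 tested calls remained.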

How the data were processed

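RNA-seq was read as the authors' deposited counts, unnormalised whole numbers per gene symbol for 12 libraries. The submitters' processing notes list mm10 as the genome build and STAR, Trimmomatic and DESeq2 as tools, with no version or role. How reads were counted, and whether by strand, is not given in the sources used here. The miCLIP list deposited by the authors gives a score per site that equals mutated reads over reads at the base.

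The analysis used edgeR 4.0.16 in R 4.3.3. The filter was filterByExpr, which here asked for about 1.33 CPM in at least 3 libraries (the nearest genes lay at 1.34 and 1.32 CPM). Libraries were scaled by TMM, and a quasi-likelihood model was fitted to all 12 libraries as 4 groups of 3, so that they share 1 estimate of the spread. Adjustment was by Benjamini-Hochberg over all 13291 genes. The procedure was tested on simulated data. Alternatives were DESeq2 1.42.0, its size factors, no filter, a filter at a mean of 5 CPM, only the 6 libraries compared, a replicate block, the Y-linked share as a covariate, and each library left out. The fits to fewer libraries repeated the filter, so the genes tested could differ. No column was left unused.

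Named are all called genes, all m6A writers, and the 4 members with the smallest p of each pathway list with at least 3 tested. The cilium group was chosen once its values had been seen. Some genes and 1 pathway list that this rule covers are not reported here. The comparison and the 33 lists were chosen with earlier results of these data known. A site was placed in a gene by the spans of RefSeq's GRCm38.p6 table, on the gene's strand (either strand where the promoter table gave none), and 23203 of 24421 symbols matched it by name and 1104 by synonym. Exons were not used here. Ratios of low counts carry 95% exact intervals for counting error only. Tables and figures used Python 3.11.15, pandas 2.3.3, numpy 2.4.6 and matplotlib 3.10.9.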

Additional observations from a re-analysis of the deposited data

Results flagged for a closer look

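Flrt3 and Atf3 stood out because their genotype difference had opposite signs in the 2 conditions, with no overlap between genotypes in either. Flrt3, an adhesion protein gene, was above wild type in every naive Mettl14cKO library and below it in every library after the lesion (760, 830 and 1090 CPM in wild type against 581, 657 and 544 CPM), a naive minus lesioned difference of 1.26 on the log2 scale. Atf3 did the same, at 380, 243 and 505 CPM after the lesion in wild type against 173, 197 and 163 CPM in Mettl14cKO, a difference of 1.84. The test of that difference did not pass for either gene with edgeR, and with DESeq2 it passed for both (adjusted p = 0.00835 for Flrt3 and 0.00225 for Atf3). The cause was not tested.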

How the results depend on the processing

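The 23 higher and 15 lower naive calls became 45 and 32 with DESeq2 and 107 and 84 with no filter on low counts. A filter at a mean of 5 CPM left 13 higher, and the Y-linked share as a covariate gave 27 lower. Leaving out 1 library gave 9 to 27 higher and 2 to 17 lower genes. Of the 38 calls, 37 were shared with DESeq2, 38 with no filter and 34 with size factors. The 126 higher and 68 lower lesioned calls became 229 and 187 with DESeq2 and 334 and 236 with no filter. With only the 6 lesioned libraries 77 were higher. They ranged over 28 to 179 and 9 to 83 without 1 library. Genes whose genotype difference changed with the lesion numbered 3 with DESeq2, 24 with no filter and 0 to 1 without 1 library. The causes were not tested. With sites of at least 3 mutated reads, 5.26% of called genes held one, against 1.45% of all genes. Chromosome 3 held 3 to 7 of the calls made without 1 library. The replicate block gave 24 higher and 14 lower naive calls, with 31 of the 38 shared. Same-numbered libraries of the 2 genotypes had correlated deviations of −0.00541, 0.258 and 0.11 in naive ganglia, so the numbers were not taken to pair the libraries. Reversals concerned uncalled genes only. Without 1 library, the log2 difference ranged from −0.075 to 0.205 for Zc3h13, −0.153 to 0.220 for Cbll1, −0.398 to 0.0683 for Hnrnpa2b1, −0.406 to 0.0661 for Kcnj10, −0.0167 to 0.304 for Letm1, −0.00438 to 0.251 for Rps6 and −0.00482 to 0.283 for Pik3r1. Cbll1 stood at −0.0513 with the Y-linked covariate. Depth limits the transcripts nearly missing from wild type most, since they rest on 0 to 17 wild-type counts per library.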
